A study of Mus musculus with 6 samples.

Results

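Hox genes encode homeodomain transcription factors that lie in 4 clusters in mammals, and 39 of the 48795 genes in the count table belong to them. Members were picked by name, without use of a measured value, though with earlier results of these data known. They are the protein-coding genes named Hoxa, Hoxb, Hoxc or Hoxd with a number. They fall into 13 paralog groups, numbered from the 3′ end of each cluster (anterior) to the 5′ end (posterior). RNA of whole quadriceps muscle was sequenced from MERKO mice, whose genotype is given as muscle-specific Er_alpha-/-, and from wildtype control mice, with 3 libraries in each group. Mice of both groups were male, C57BL/6 and 20 weeks old. ERα, encoded by Esr1, is the nuclear estrogen receptor. The labels name neither the promoter or Cre driver behind the muscle specificity nor any floxed allele of the control mice, and they do not say whether animals were pooled.

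In embryos, Hox genes are switched on in the order in which they lie on the chromosome, and the combination a cell keeps records its position along the body and limb axes. In the limb, genes of group 10 are needed for the upper segment of the hindlimb (thigh), group 11 for the middle segment and group 13 for the hand and foot. Adult connective tissue, muscle fibres and muscle stem cells keep part of this code. HOX proteins bind DNA together with TALE-class partners of the PBX and MEIS families. Polycomb complexes hold silent Hox genes shut, and Trithorax-group proteins keep active ones open. The quadriceps is a muscle of the thigh.

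Esr1, on the plus strand of chromosome 10 (4611593 to 5005614, GRCm38), was lower in the 3 MERKO libraries, at 7.88 ± 1.39 CPM (scaled counts relative to library size), than in the 3 control libraries, at 30.1 ± 4.59 CPM (mean ± SD here and throughout). The log2 change was -1.95 with an adjusted p of 0.0262 in edgeR's quasi-likelihood test, and the adjusted p was 0.0576 to 0.109 when MERKO 1, MERKO 2, control 2 or control 3 was left out. P-values were adjusted by Benjamini-Hochberg over the 13628 genes tested, with a threshold of 0.05. Library totals lay between 15755947 and 26596608 counts in MERKO and between 14935532 and 44282448 counts in control. The rRNA gene model CT010467.1 took 6.19% to 32.4% of counts in MERKO and 0.0433% to 27.7% in control, with control 3 at the low end. Hox genes together had 963 to 2005 counts in MERKO libraries and 1127 to 5503 in control libraries. Muscle fibre markers (Acta1, Ckm, Myh4, Myh1, Ttn and Mylpf) summed to 162547 to 279791 CPM in MERKO, against 167995 to 226516 in control. Of 5 skin markers, Krt5, Krt14 and Krt1 had 0 counts in every library, as had Bglap and Ibsp of 5 bone and cartilage markers. The 5 skin markers summed to 0.673 to 0.818 CPM in MERKO, against 0.378 to 0.551 in control. The 5 bone and cartilage markers summed to 0.192 to 0.608 CPM in MERKO, against 0.0840 to 0.158 in control. These sums rest on as few as 5 (skin) and 2 (bone and cartilage) counts in a library. In bulk tissue, fewer cells of a type and less RNA per cell cannot be told apart.

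The sequences before 4 of these genes are shown because the results below turn on Hoxd8 and its neighbours Hoxd9 and Hoxd10, with Hoxa10 as a member with little spread between libraries. Each is the run of 250 bases before the RefSeq transcript start (GRCm38.p6), 5′ to 3′ on the gene's strand. Capitals mark any of 6 motifs that were searched on both strands. Hoxd8 is at chr2:74704365-74704614 (plus strand), Hoxd9 at chr2:74697513-74697762 (plus strand), Hoxd10 at chr2:74691641-74691890 (plus strand) and Hoxa10 at chr6:52240855-52241104 (minus strand).
Hoxd8: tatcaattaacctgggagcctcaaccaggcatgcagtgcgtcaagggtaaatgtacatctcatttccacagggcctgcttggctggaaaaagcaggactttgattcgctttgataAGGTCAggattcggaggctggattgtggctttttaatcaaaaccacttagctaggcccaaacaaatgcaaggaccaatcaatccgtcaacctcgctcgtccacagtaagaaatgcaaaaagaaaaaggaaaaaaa
Hoxd9: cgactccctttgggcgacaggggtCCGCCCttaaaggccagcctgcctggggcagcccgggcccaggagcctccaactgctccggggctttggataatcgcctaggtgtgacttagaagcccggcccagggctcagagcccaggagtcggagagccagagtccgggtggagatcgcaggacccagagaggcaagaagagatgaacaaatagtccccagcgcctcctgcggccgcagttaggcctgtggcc
Hoxd10: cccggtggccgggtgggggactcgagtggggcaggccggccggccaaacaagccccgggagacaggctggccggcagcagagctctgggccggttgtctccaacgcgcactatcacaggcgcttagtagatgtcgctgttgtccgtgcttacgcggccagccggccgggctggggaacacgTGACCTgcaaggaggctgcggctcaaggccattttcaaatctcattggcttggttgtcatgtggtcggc
Hoxa10: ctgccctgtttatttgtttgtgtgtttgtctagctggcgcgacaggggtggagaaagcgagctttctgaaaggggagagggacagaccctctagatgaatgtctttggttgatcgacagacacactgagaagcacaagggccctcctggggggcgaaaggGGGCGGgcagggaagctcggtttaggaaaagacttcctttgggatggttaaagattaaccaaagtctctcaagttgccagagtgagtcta
The Hoxd8 window holds 1 copy of AGGTCA, the core that hormone response elements repeat, and the Hoxd10 window holds 1 copy on the other strand. The Hoxd9 and Hoxa10 windows each hold 1 GC box (GGGCGG), on the other strand in Hoxd9 and on the gene's own strand in Hoxa10. RefSeq promoters were at hand for 22 of the 39 members. AGGTCA was found in 6 of the 22 (Hoxb4, Hoxc4, Hoxd3, Hoxd4, Hoxd8 and Hoxd10) and in 14.02% of 32851 promoter windows of the same length. The palindromic estrogen response element (GGTCA, any 3 bases, TGACC), which would share letters with AGGTCA, was found in 0 of 22 and in 0.0639% of all windows. GGGCGG was found in 9 of 22 and in 32.7% of all windows. The HOX-PBX motif TGATTNAT was in 1 of 22 (Hoxa2) against 2.82% of all, the MEIS motif TGACAG in 2 of 22 (Hoxa2 and Hoxa3) against 15.9%, and TATAAA in 3 of 22 against 12.4%. The median number of CpG dinucleotides was 12 in the Hox windows and 6 in all windows. Within this set the Hoxd8 window held 6, Hoxa10 7, Hoxd9 13 and Hoxd10 20. These matches describe letters only.

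Of the 39 members, 15 had at least 10 counts in every library. A further 14 had at least 1 count in every library but fewer than 10 in at least 1, which made 29 in all. Hoxb1, Hoxc12, Hoxc13, Hoxd1 and Hoxd12 had 0 counts in all 6 libraries. A count of 0 allows up to 3 counts, which corresponds to 0.0192 CPM over all libraries together and to 0.0551 to 0.253 CPM in a single library, for counting error alone. In the Hoxb, Hoxc and Hoxd clusters, the genes of groups 12 and 13 had at most 6 counts in a library. Hoxd13 had 6 counts and Hoxd11 had 2, all in control 3, and Hoxb13 had 1, in control 1.

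**Figure D1:**
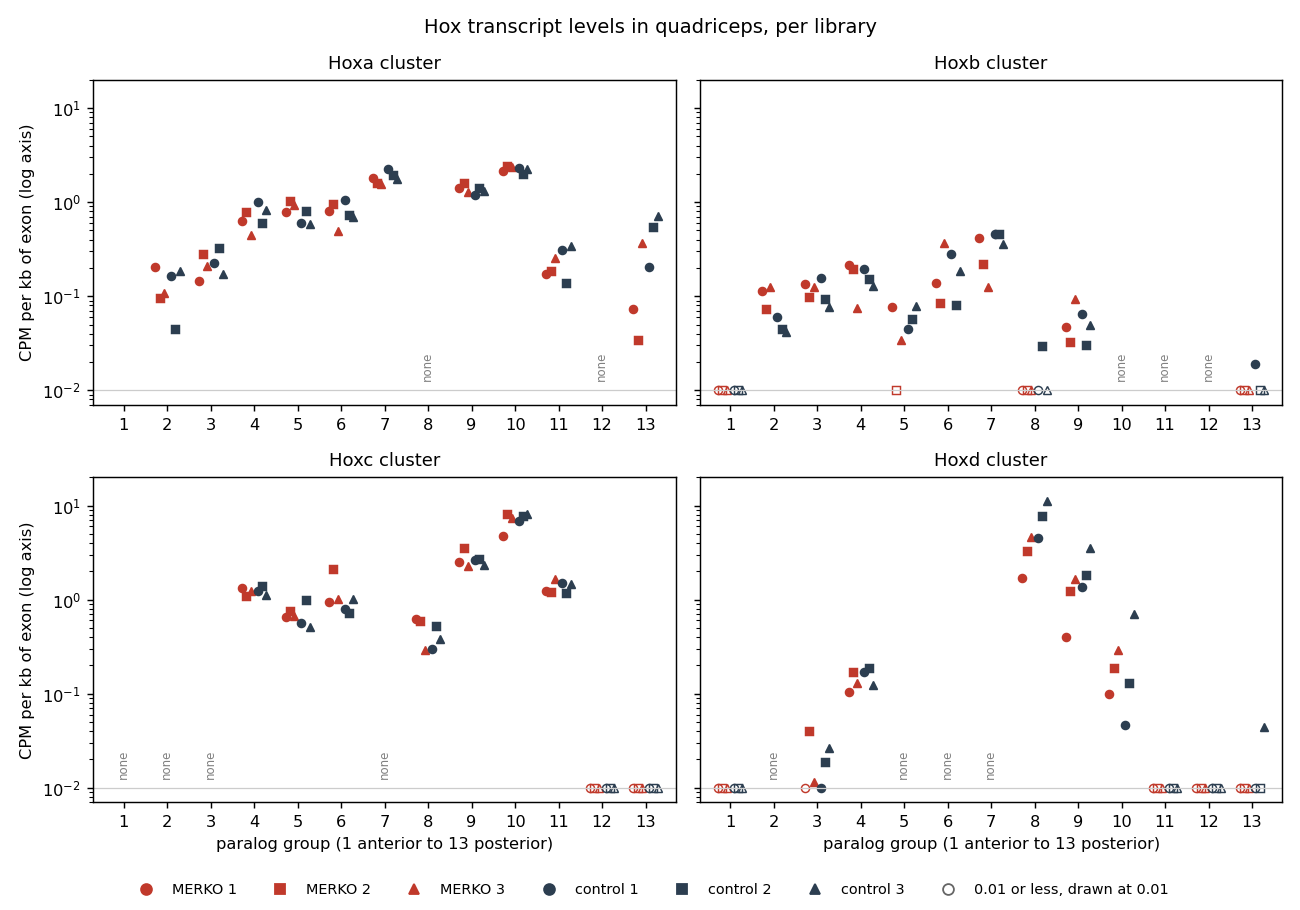
Level of 38 Hox genes in each library, in CPM per kilobase of merged exon on a log axis, by paralog group (horizontal axis) and cluster (panels). MERKO libraries are drawn in red, left of control libraries in dark blue, open symbols stand for 0.01 or less, and "none" marks groups without a gene in that cluster. Levels peak at group 8 in Hoxd and at group 10 in Hoxc and Hoxa, and no Hoxb gene stands above 1.

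Levels of different genes were compared per kilobase of merged exon, as the mean over the 6 libraries. Over all 6, Hoxc10 was the highest at 7.16 ± 1.302 CPM per kb (SD, n = 6), and Hoxd8 came next at 5.51 ± 3.41. Within groups, Hoxc10 was at 6.75 ± 1.82 CPM per kb in MERKO, against 7.56 ± 0.67 in control. Hoxd8 was at 3.22 ± 1.49 CPM per kb in MERKO, against 7.79 ± 3.34 in control, where its mean stood first but within its SD of Hoxc10. Hoxd8 exceeded Hoxc10 in control 3 alone, at 11.1 against 8.07 CPM per kb. Hoxc9 had 2.67 ± 0.45 and Hoxa10 2.24 ± 0.16 CPM per kb. These 4 genes differed from their neighbours in the order by less than the larger SD of each pair, up to the step from Hoxa10 to Hoxa7 at 1.82 ± 0.25 CPM per kb. Hoxd9 at 1.67, Hoxc11 at 1.38, Hoxa9 at 1.37, Hoxc4 at 1.23, Hoxc6 at 1.10, Hoxa6 and Hoxa5 at 0.79, Hoxa4 at 0.72 and Hoxc5 at 0.69 followed without a step beyond their spread. Hoxc8 at 0.45 CPM per kb stood below Hoxc5 by more than their SD. The remaining order had such a step only between Hoxb3 and Hoxb2 and between Hoxb5 and Hoxd3.

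By cluster, Hoxc genes made up 46.6% ± 6.02 of the summed Hox level, Hoxa genes 27.8% ± 4.42, Hoxd genes 22.4% ± 10.2 and Hoxb genes 3.23% ± 1.07 (SD, n = 6, CPM per kb). By paralog group and over all 6 libraries, group 10 held 30.3% ± 2.52, group 9 held 18.1% ± 1.01 and group 8 held 17.7% ± 7.17. Group 10 held 32.0% ± 2.29 in MERKO and 28.6% ± 1.34 in control. Group 9 held 18.6% ± 1.15 in MERKO and 17.5% ± 0.46 in control, and group 8 held 12.8% ± 3.39 in MERKO and 22.7% ± 6.56 in control. By these means, group 8 was below group 9 in MERKO and above it in control. In control 1, however, group 8 at 15.6% was also below group 9 at 17.3%. Group 11 held 5.16% ± 1.09, group 13 held 0.97% ± 0.71 and group 12 had 0 counts. Of the 13 paralog groups, group 8, to which Hoxd8 belongs, had the share with the largest SD between libraries. Group 10 had the next largest. The Hoxb cluster had 10 genes, of which 2 passed the filter on low counts. Hoxb genes are known more for the trunk and hindbrain than for limb segments.

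Members of the table that overlap another gene are uncertain, because no source at hand gives the strand setting of the counting. Exon bases shared with another annotated gene made up 62.8% of Hoxd3, 52.9% of Hoxb3, 52.3% of Hoxd4, 35.0% of Hoxa11 and 27.1% of Hoxa3. They made up 20.4% of Hoxa7 and 8.70% of Hoxc10. Hoxd8, Hoxd9, Hoxa10 and Hoxa13 shared none. At most 3 runs of 50 bases per gene recurred in a Hox gene of another cluster.

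Of the 39 members, 20 passed the filter on low counts and were tested. By the adjusted p, 0 of the 20 were called in MERKO against control, beside 0.00734% of all 13628 genes, which is Esr1 alone. At an unadjusted p under 0.05 there was 1 member, Hoxd8, beside 7.04% of all genes. DESeq2 and limma-voom also called 0 members. The 3 MERKO and 3 control libraries overlapped for each of the 20, while the groups did not overlap for 13.3% of all genes tested. The log2 fold change was above 0 for 8 members and below 0 for 12, with a median of -0.089 over the 20 and of 0.011 over all genes, 47.9% of which were below 0. Hoxa13 and Hoxb7 reached the filter's level in 1 MERKO library and 3 control libraries, so their passing depended on control.

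**Figure D2:**
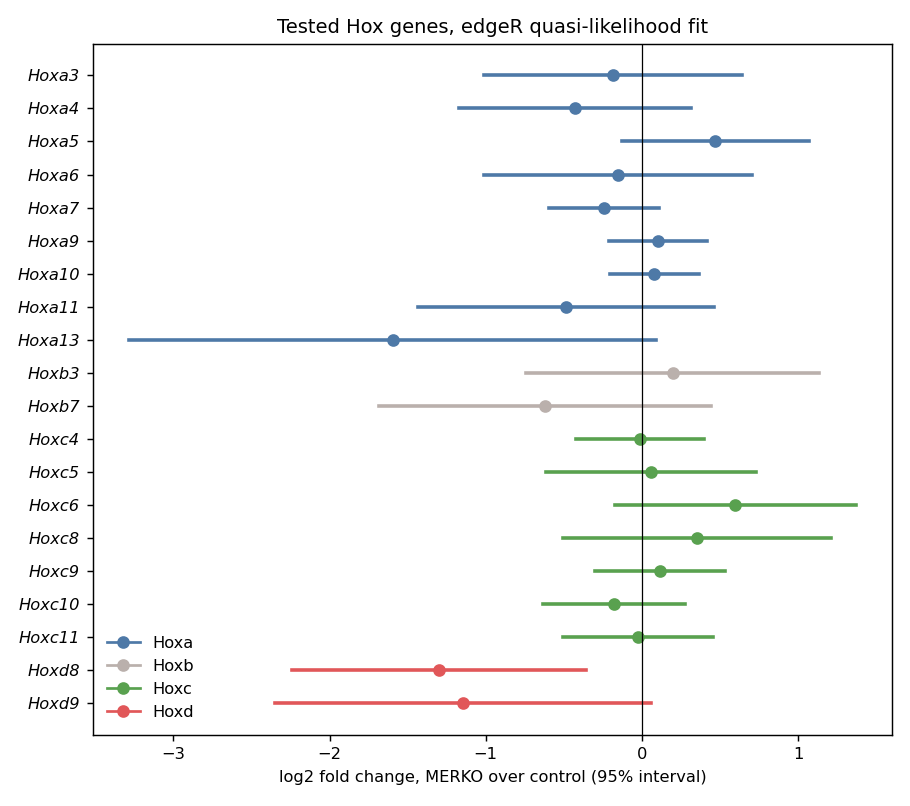
Log2 fold change of MERKO over control (horizontal axis) for the 20 tested Hox genes, ordered by cluster and position, with 95% confidence intervals from edgeR's quasi-likelihood fit. The interval of Hoxd8, from -2.24 to -0.36, is the only one that leaves out 0, and no member passed the adjusted threshold.

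The Hoxd cluster (GRCm38 chromosome 2, 74668310 to 74765142) held the members with the widest difference between groups beside Hoxa13. Hoxd8 (ENSMUSG00000027102.4, 74704615 to 74707933, plus strand), a mid-cluster gene, had 153, 107 and 267 counts in MERKO 1 to 3, against 292, 270 and 1664 in control 1 to 3. Scaled for library size, these were 4.65, 9.01 and 12.8 CPM in MERKO, against 12.3, 21.3 and 30.6 CPM in control. MERKO 3 lay just above control 1, and the other MERKO libraries lay below all control libraries. Hoxd8 averaged 8.84 ± 4.10 CPM in MERKO, against 21.4 ± 9.16 in control. The log2 fold change was -1.30 (SE 0.41, 95% interval -2.24 to -0.36), with an unadjusted p of 0.0129 and an adjusted p of 0.668 in edgeR's test. It was called in 3 of 16 alternatives, over which the adjusted p ran from 0.00199 to 0.999. In edgeR, 2 of these were library totals alone as scaling (adjusted p 0.00199) and no filter on low counts (adjusted p 0.00981). The other was the replicate number as a block in the fit (edgeR adjusted p 0.00295), though no label says that these numbers pair samples. Without control 3 the log2 fold change was -0.93, and without MERKO 1 it was -0.96.

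Hoxd9 (ENSMUSG00000043342.9, 74697727 to 74700208, plus strand), a gene of group 9, had 28, 31 and 73 counts in MERKO, against 70, 49 and 414 in control. These were 0.85, 2.61 and 3.51 CPM in MERKO, against 2.94, 3.87 and 7.61 CPM in control. The 6 libraries ran in the same order for Hoxd9 as for Hoxd8, with MERKO 1 lowest, control 3 highest and MERKO 3 just above control 1. For Hoxd9 the log2 change was -1.14 (SE 0.52, 95% interval -2.35 to 0.06, edgeR adjusted p 0.713). It was -0.58 without control 3 and -0.68 without MERKO 1.

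Hoxd10, which acts with the other group 10 genes in the thigh, did not pass the filter. It had 6, 4 and 11 counts in MERKO, against 2, 3 and 70 in control. Control 3 thus held 72.9% of all Hoxd10 counts, where it held 34.8% of the scaled library size. It held 60.4% of Hoxd8, 62.3% of Hoxd9 and 63.8% of Hoxa13 counts, and 34.8% of Hoxa10 counts. Hoxd4 had 10, 6 and 8 counts in MERKO, against 12, 7 and 20 in control. Hoxd3 had 1 to 2 counts in MERKO libraries and 1 to 6 in control libraries.

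Summed over the 9 Hoxd genes, the level was 6.02, 12.6 and 17.3 CPM in MERKO, against 15.8, 26.0 and 40.1 CPM in control. The Hoxa, Hoxb and Hoxc genes together summed to 54.9, 68.4 and 58.9 CPM in MERKO, against 60.3, 62.9 and 61.0 CPM in control. Over all 6 libraries, the spread of the Hox total therefore lay mostly in Hoxd, and within Hoxd mostly in Hoxd8. This did not hold between MERKO 1 and MERKO 2, where the Hoxa to Hoxc sum differed more than the Hoxd sum. Hoxd8 alone had 4.65, 9.01 and 12.8 CPM of the Hoxd sum in MERKO, against 12.3, 21.3 and 30.6 CPM in control. The Hoxd sum and share thus largely restate Hoxd8, and 2 of the 9 Hoxd genes were tested. As shares of the level per kilobase, Hoxd genes took 15.8% ± 6.34 in MERKO and 29.0% ± 9.40 in control. Hoxc genes took 51.1% ± 3.13 in MERKO and 42.1% ± 4.51 in control, and Hoxa genes 29.8% ± 4.28 in MERKO and 25.8% ± 4.33 in control. These shares sum to a fixed total, so they do not move independently. No test was run on them.

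**Figure D3:**
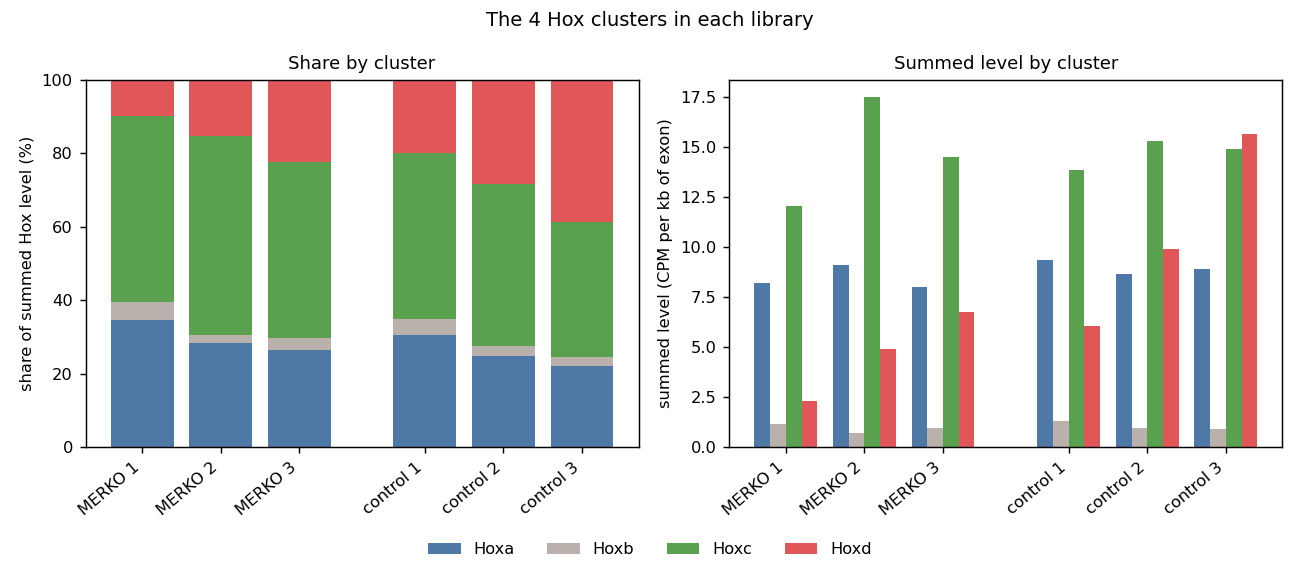
Share of the summed Hox level per cluster in percent (left) and summed level per cluster in CPM per kilobase of exon (right), with 1 bar or bar group per library, MERKO left of control. The Hoxd level runs from 2.30 in MERKO 1 to 15.6 in control 3, while the Hoxa level stays between 7.995 and 9.33.

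Hoxd3os1 (ENSMUSG00000052371.5, 74703248 to 74716130, minus strand) is an antisense non-coding gene that spans Hoxd8 without sharing exon bases with it. It had 14, 9 and 18 counts in MERKO, against 28, 40 and 128 in control. These were 0.43, 0.76 and 0.87 CPM in MERKO, against 1.18, 3.16 and 2.35 CPM in control, and the groups did not overlap. Its log2 change was -1.73 (SE 0.44, 95% interval -2.75 to -0.71, edgeR adjusted p 0.654). It was called with library totals alone (adjusted p 0.0242) and without a filter (adjusted p 0.0320). Hoxd3os1 exons share bases with exons of Hoxd3 and Hoxd4. Without knowledge of the strand setting, reads from Hoxd3os1 cannot be told apart from reads of those exons or of Hoxd8 introns or flanks. Of the 15 non-coding Hox-cluster genes, the only other one tested was Hoxb3os, at 0.39 ± 0.14 CPM in MERKO, against 0.58 ± 0.17 in control, a log2 change of -0.41 (SE 0.43, edgeR adjusted p 0.846). Hotair, a non-coding gene of the Hoxc cluster, had 0, 1 and 2 counts in MERKO, against 6, 1 and 12 in control. Hottip and Hotairm1 had at most 3 counts in a library, and Haglr had 0 throughout. The hairpin genes of miR-10 and miR-196 had 0 to 2 counts, which does not measure the mature miRNAs.

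**Figure D4:**
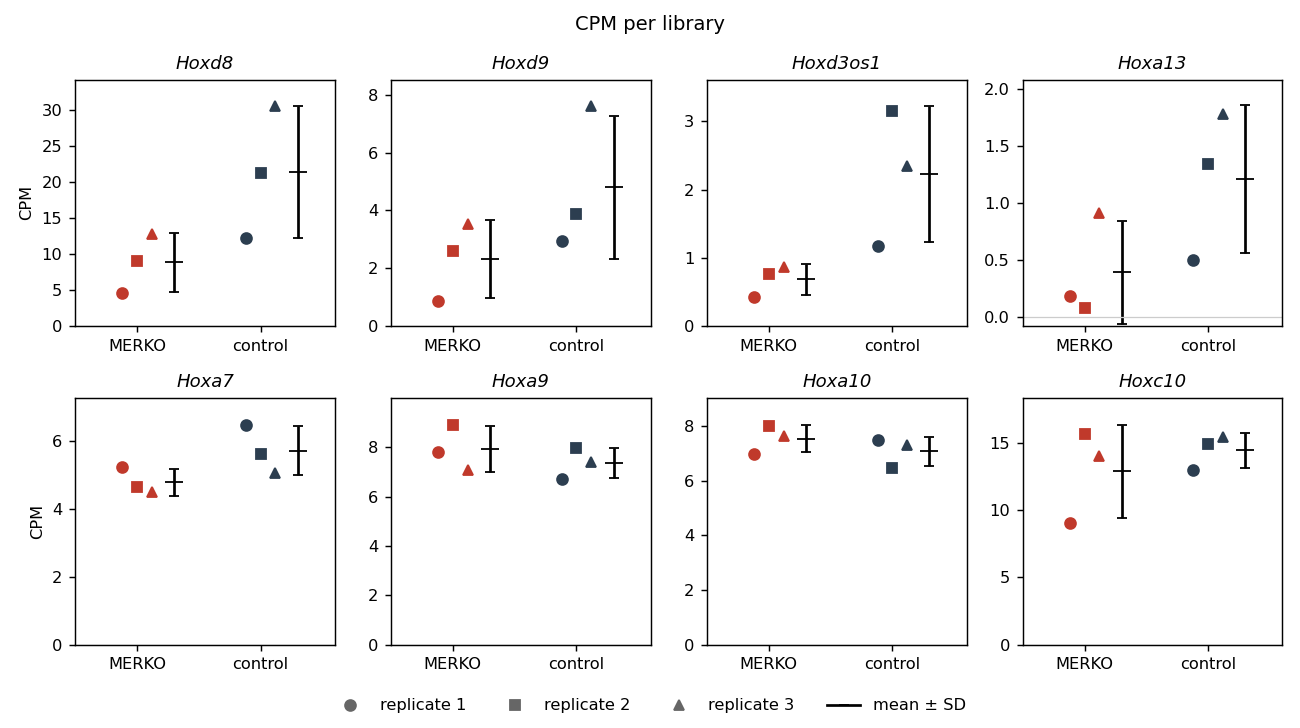
CPM in each library (symbols, MERKO left of control) with mean ± SD per group (bars, n = 3) for 7 Hox genes and Hoxd3os1. Hoxd8, Hoxd9 and Hoxa13 averaged lower in MERKO with overlapping libraries, Hoxd3os1 was lower without overlap, and Hoxa9 and Hoxa10 lie close together in both groups.

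The marker levels of some other cells differed between the same libraries. Marker sums of satellite cells, endothelium, smooth muscle with pericytes, and macrophages overlapped between the groups, as did the slow fibre and fibroblast sums given here. The satellite cell list included Des, which muscle fibres also express, so its sum is not particular to satellite cells. Slow fibre markers summed to 516, 37.3 and 41.4 CPM in MERKO, against 528, 43.2 and 47.4 CPM in control, and the high library of each group was also its lowest in Hoxd8. With both of those libraries left out, the log2 fold change of Hoxd8 was -1.24 and that of Hoxd9 -0.95. Adipocyte markers summed to 127 to 165 CPM in MERKO, against 170 to 526 in control. Their log2 fold change was below 0 for 8 of 8, where 47.9% of all tested genes were below 0. Tendon markers summed to 87.8 to 419 CPM in MERKO, against 33.5 to 88.9 in control, with a log2 fold change above 0 for 8 of 9. Fibroblast and fibro-adipogenic progenitor markers summed to 1614 to 2198 CPM in MERKO, against 1646 to 2347 in control, above 0 for 3 of 10. Schwann cell markers summed to 36.4 to 55.9 CPM in MERKO, against 26.2 to 34.1 in control, above 0 for 8 of 8. Esr1 was the only gene called, so none of these markers was, and each had counts in at least 1 library. Their part in the Hoxd values was not tested.

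**Figure D5:**
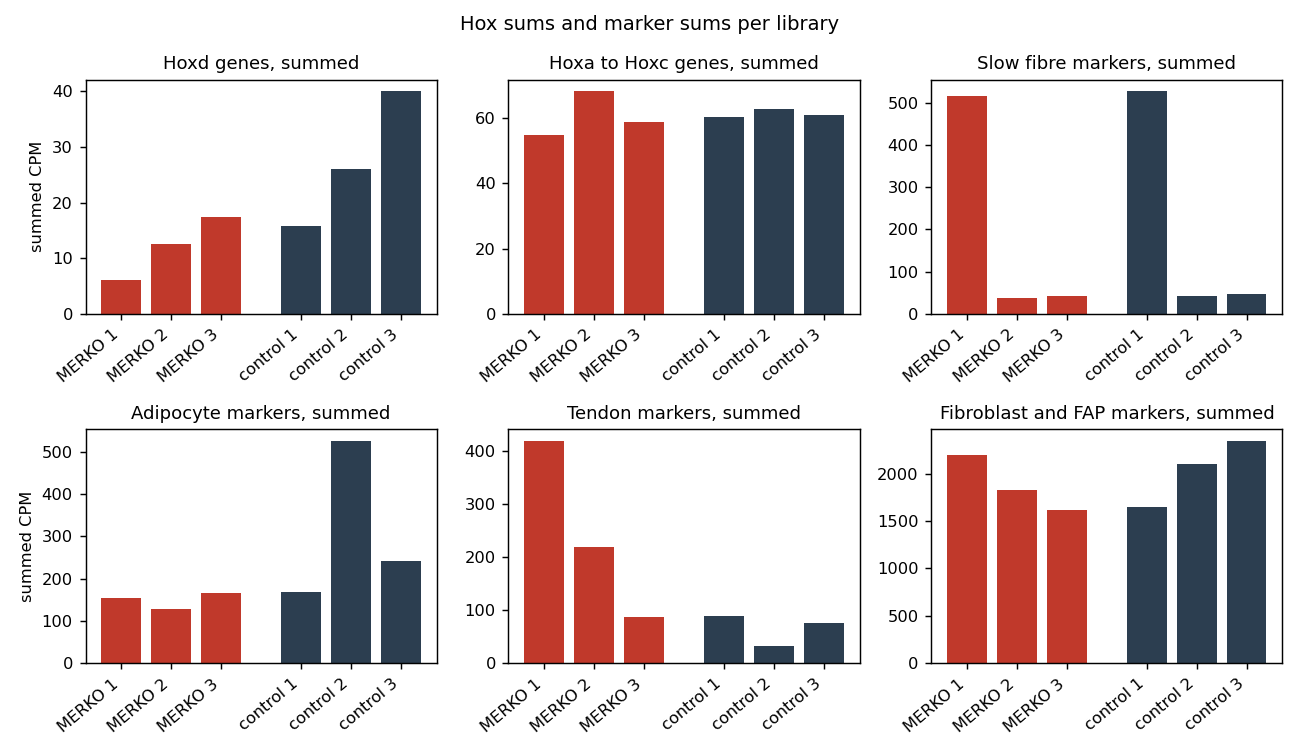
Summed CPM per library of the Hoxd genes, of the Hoxa to Hoxc genes, and of 4 marker lists, with MERKO bars left of control bars. The Hoxd sum is lowest in MERKO 1 and highest in control 3, and slow fibre markers stand at 516 in MERKO 1 and 528 in control 1, far above the other 4 libraries.

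In the Hoxa cluster (chromosome 6, 52155590 to 52260880), 9 of 11 genes were tested. Hoxa10, which with Hoxc10 and Hoxd10 patterns the femur region, had 230, 95 and 159 counts in MERKO, against 178, 82 and 397 in control. It averaged 7.55 ± 0.51 CPM in MERKO, against 7.08 ± 0.54 in control, and its coefficient of variation of 7.29% over the 6 libraries was below the median of 25.8% for tested Hox genes. The estimated fold of 1.06 had a 95% interval from 0.866 to 1.29, and the log2 change of 0.079 turned to -0.054 when library totals alone were used for scaling. The medians of this coefficient were 14.9% for all tested genes and 19.0% for the 8350 genes in the same CPM range. Hoxa9 had 257, 106 and 147 counts in MERKO, against 160, 101 and 403 in control, a mean of 7.94 ± 0.93 CPM in MERKO, against 7.37 ± 0.63 in control. Its estimated fold of 1.08 had a 95% interval from 0.865 to 1.34.

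Hoxa13, a gene of the hand and foot program, had 6, 1 and 19 counts in MERKO, against 12, 17 and 97 in control. It was at 0.18, 0.084 and 0.91 CPM in MERKO, against 0.50, 1.34 and 1.78 CPM in control. MERKO 3 exceeded control 1, so the groups overlapped. This gave a log2 change of -1.60 (SE 0.73, 95% interval -3.28 to 0.09, edgeR adjusted p 0.713), and it lay between -2.98 without MERKO 3 and -1.09 without control 3. Hoxa11, a gene of the middle limb segment, had 13, 5 and 12 counts in MERKO, against 17, 4 and 43 in control.

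Hoxa7 had 172, 55 and 93 counts in MERKO, against 154, 71 and 274 in control, a mean of 4.78 ± 0.40 CPM in MERKO, against 5.70 ± 0.72 in control. Its MERKO library at 5.23 CPM overlapped the lowest control library at 5.04 CPM, and the log2 fold change was -0.24 (SE 0.15, edgeR adjusted p 0.740). Hoxa5, best known from lung and axial skeleton, had 48, 23 and 36 counts in MERKO, against 27, 19 and 60 in control. It averaged 1.71 ± 0.24 CPM in MERKO, against 1.25 ± 0.22 in control, for a log2 change of 0.47 (SE 0.26, 95% interval -0.13 to 1.07, edgeR adjusted p 0.715). Hoxa4 had 33, 15 and 15 counts in MERKO, against 38, 12 and 72 in control, for a log2 change of -0.43 (SE 0.32, edgeR adjusted p 0.786). Both genes had overlapping groups. Hoxa3 had 29, 20 and 26 counts in MERKO, against 32, 25 and 57 in control. Hoxa6 had 23, 10 and 9 counts in MERKO, against 22, 8 and 33 in control. Hoxa2, which patterns the hindbrain, was not tested and had 12, 2 and 4 counts in MERKO, against 7, 1 and 18 in control.

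In the Hoxc cluster (chromosome 15, 102921103 to 103036852), 7 of 9 genes were tested, and the other two had 0 counts. Posterior Hoxc genes are known to be expressed in hindlimb more than in forelimb. Hoxc10 (ENSMUSG00000022484.7), a gene linked to hindlimb identity, had 296, 186 and 291 counts in MERKO, against 309, 189 and 838 in control. It was at 9.0003, 15.7 and 14.003 CPM in MERKO, against 12.98, 14.9 and 15.4 CPM in control, with MERKO 1 below the other 5 libraries. The log2 fold change of -0.18 (SE 0.20, 95% interval -0.63 to 0.27, edgeR adjusted p 0.854) was 0.034 without MERKO 1. Hoxc9 had 202, 102 and 116 counts in MERKO, against 152, 83 and 308 in control, and its estimated fold of 1.08 had a 95% interval from 0.813 to 1.44. Hoxc11 had 83, 29 and 70 counts in MERKO, against 73, 30 and 162 in control, with a fold of 0.982 and an interval from 0.704 to 1.37. The groups overlapped for both.

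Hoxc6 had 74, 60 and 51 counts in MERKO, against 45, 22 and 133 in control. In CPM it was at 2.25, 5.05 and 2.45 in MERKO, against 1.89, 1.74 and 2.44 in control. MERKO 2 stood above the other 5 libraries, and the log2 fold change of 0.60 (SE 0.34, 95% interval -0.17 to 1.37, edgeR adjusted p 0.715) was 0.19 without it. Hoxc4 had 112, 33 and 66 counts in MERKO, against 76, 45 and 157 in control, with a fold of 0.991 and a 95% interval from 0.746 to 1.32. Hoxc5 had 66, 28 and 43 counts in MERKO, against 41, 39 and 87 in control. Hoxc8 had 58, 20 and 17 counts in MERKO, against 20, 19 and 59 in control. All of these had overlapping groups.

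In the Hoxb cluster (chromosome 11, 96194316 to 96368256), 2 of 10 genes were tested. Hoxb7 had 21, 4 and 4 counts in MERKO, against 17, 9 and 30 in control, at 0.39 ± 0.23 CPM in MERKO, against 0.66 ± 0.093 in control. Its log2 fold change was -0.62 (SE 0.46, 95% interval -1.68 to 0.44, edgeR adjusted p 0.777), and it was -1.35 without MERKO 1 and -0.30 without MERKO 3. Hoxb3 had 19, 5 and 11 counts in MERKO, against 16, 5 and 18 in control. Of the untested genes, Hoxb2, Hoxb4, Hoxb5, Hoxb6 and Hoxb9 had 0 to 18 counts in MERKO libraries and 1 to 20 in control libraries. Hoxb8 had 0 counts in MERKO and 1 count each in control 2 and control 3.

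A list of 12 genes held TALE-class genes, the DNA-binding partners of HOX proteins and their relatives, and also Pbxip1. Pbxip1 encodes a PBX-interacting protein that is not of this class. Of the 12, 10 were tested, Pbxip1 among them. By the adjusted p in edgeR 0 were called, as with DESeq2 and limma-voom, and 2 had an unadjusted p under 0.05, beside 7.04% of all genes. Of the 10, 5 had a log2 fold change above 0, with Pbxip1 (0.055) as 1 of them, and 5 below, with a median of -0.025. The groups did not overlap for 3 of the 10, all lower in MERKO, beside 7.10% of all genes in that direction. Pknox2 averaged 11.7 ± 1.51 CPM in MERKO, against 15.8 ± 1.57 in control, a log2 change of -0.45 (SE 0.13, edgeR adjusted p 0.654). Meis1, a cofactor of posterior HOX proteins, averaged 4.44 ± 0.87 CPM in MERKO, against 6.08 ± 0.62 in control, a log2 change of -0.46 (SE 0.19, edgeR adjusted p 0.683). Tgif1, a TALE-class repressor, averaged 2.97 ± 0.45 CPM in MERKO, against 3.97 ± 0.31 in control, a log2 change of -0.40 (SE 0.18, edgeR adjusted p 0.708).

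A list of 47 genes held Polycomb and Trithorax genes and other regulators of Hox clusters, such as Dot1l and Ctcf. All 47 were tested, and 0 were called by the adjusted p in edgeR, DESeq2 or limma-voom. At an unadjusted p under 0.05 in edgeR there was 1 (Dot1l), beside 7.04% of all genes. The log2 change was above 0 for 29 and below 0 for 18, with a median of 0.060, where 47.9% of all genes were below 0. The groups did not overlap for 5 of the 47 (Dot1l, Men1, Ezh1, Phf1 and Rbbp5), all higher in MERKO, beside 6.17% of all genes in that direction. Dot1l, a histone H3 methyltransferase, averaged 10.6 ± 0.64 CPM in MERKO, against 8.16 ± 0.84 in control, a log2 change of 0.39 (SE 0.12, edgeR adjusted p 0.668). Men1, a subunit of Trithorax-type complexes, averaged 6.55 ± 0.51 CPM in MERKO, against 5.32 ± 0.39 in control, a log2 change of 0.30 (SE 0.13, edgeR adjusted p 0.713). Kmt2a, the Trithorax homolog that maintains Hox expression, averaged 22.8 ± 4.69 CPM in MERKO, against 18.1 ± 1.25 in control, with overlap (log2 change 0.32, SE 0.15, edgeR adjusted p 0.713).

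Of 32 limb identity and patterning genes, 24 were tested and 0 were called by the adjusted p in edgeR, DESeq2 or limma-voom. At an unadjusted p under 0.05 in edgeR there were 4 (Pax3, Meox1, Six4 and Alx4), beside 7.04% of all genes. The log2 change was above 0 for 18 and below 0 for 6, with a median of 0.25, where 47.9% of all genes were below 0. Among the genes that set hindlimb against forelimb, Pitx1 was not tested, with 7, 4 and 1 counts in MERKO, against 4, 3 and 12 in control. Tbx4, its hindlimb partner, averaged 0.98 ± 0.10 CPM in MERKO, against 0.75 ± 0.19 in control. Tbx5, the forelimb counterpart, averaged 0.70 ± 0.30 CPM in MERKO, against 0.69 ± 0.049 in control. Isl1, Msx2, Hand2 and Evx1 had 0 counts in every library, and Lmx1b, Prrx2 and Evx2 were not tested.

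Several genes of that list act in the muscle lineage. Tbx15, a regulator of fast fibres, averaged 254 ± 60.3 CPM in MERKO, against 239 ± 5.26 in control. Lbx1, which guides migrating muscle precursors, averaged 35.3 ± 5.50 CPM in MERKO, against 37.4 ± 2.22 in control. The groups overlapped for both genes. Six4 averaged 31.6 ± 2.03 CPM in MERKO, against 26.8 ± 1.64 in control, a log2 change of 0.23 (SE 0.095, edgeR adjusted p 0.683), without overlap. Pax3, a regulator of embryonic limb muscle precursors, averaged 1.09 ± 0.16 CPM in MERKO, against 0.39 ± 0.18 in control, without overlap (log2 change 1.39, SE 0.39, edgeR adjusted p 0.654). Meox1 averaged 2.22 ± 0.69 CPM in MERKO, against 1.15 ± 0.48 in control, with overlap (log2 change 0.89, SE 0.35, edgeR adjusted p 0.683).

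Of the other tested genes of this list, Meox2 and Alx4 were higher in all MERKO libraries than in all control libraries, at log2 fold changes of 0.30 and 0.90, and Osr2 was lower in all, at -0.82. Meox2, a muscle patterning factor, averaged 7.90 ± 0.97 CPM in MERKO, against 6.42 ± 0.32 in control. Alx4 averaged 1.01 ± 0.29 CPM in MERKO, against 0.56 ± 0.12 in control. Osr2 averaged 0.46 ± 0.21 CPM in MERKO, against 0.84 ± 0.11 in control. These counts of 4 higher and 1 lower among 24 stand beside 6.17% higher and 7.10% lower over all genes. The groups overlapped for Prrx1, Osr1 and Tcf7l2, which are known from limb connective tissue, and for Tcf4, Tbx3, Tbx2 and Gli3, with log2 fold changes from -0.27 (Osr1) to 0.43 (Tbx3). They also overlapped for Shox2, Tbx18, En1, Msx1, Emx2 and Barx2, with log2 fold changes from -0.19 (En1) to 0.56 (Emx2).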

How the data were processed

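Per the labels' protocols, Trizol was used for the RNA and Illumina's TruSeq RNA kit for the libraries. The authors deposited raw read counts per gene for 6 libraries. Tools named in the submitters' processing notes are HTSeq 0.9.1, STAR 2.5.2b and DESeq, and the build is mm10 (GRCm38). No source at hand gives the annotation release or the strand setting. All count columns were mapped to samples by title. Symbols, exons and coordinates came from GENCODE M21 (GRCm38), which matched 48349 of 48795 identifiers.

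Counts were tested in R 4.3.3 with edgeR 4.0.16 (quasi-likelihood, filterByExpr, TMM), with genotype as the sole term. The filter asked for about 0.455 CPM in at least 3 libraries. CPM are counts per 1000000 of the TMM-scaled total of tested genes. The biological coefficient of variation was 18.6%. The labels do not say whether libraries came from separate animals, so p-values measure the spread between libraries. The code was tested on simulated data.

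The members and lists were chosen with earlier results of these data known. Named genes were the tested members, with tests for the 8 of lowest p, up to 3 lowest-p genes of each other list, every tested limb gene, tested non-coding Hox genes and Esr1. Ezh1, Phf1 and Rbbp5 were named after their values were seen. The values of some of these genes are not reported here. Hoxc10, Hoxa10 and the promoters shown were chosen after their values were seen. Alternatives were DESeq2 1.42.0, limma-voom (limma 3.58.1), RLE scaling, no composition factor, other filters, a replicate block, a robust prior, removal of CT010467.1, a threshold of 0.1 and leaving out libraries. Shares were also computed without length, with the longest transcript and, added after the data were seen, with unshared exon length.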

Additional observations from a re-analysis of the deposited data

How the results depend on the processing

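The number of genes called among all tested was 1 in the reported fit. It was 23 with DESeq2, 93 with no composition factor, 140 with no filter and 7 without MERKO 1 and control 1 together, and 0 to 11 with 1 library left out. Of the Hox genes, Hoxd8 was the 1 called with no composition factor (log2 fold change -1.49) and with no filter (-1.30), and 0 were called with any 1 library left out. With 1 library left out, its log2 fold change ran from -1.70 to -0.93. Of the non-coding list, Hoxd3os1 was the 1 called in those 2 settings (-1.84 and -1.73). No composition factor moved the median of all genes to -0.10, against 0.011. The median of tested Hox genes, -0.089, was -0.21 with no composition factor and -0.19 with no filter, and -0.14 to 0.034 with 1 library left out. Hoxc10 turned to 0.034 without MERKO 1, within a range of -0.33 to 0.034 with 1 library left out, and Hoxa10 to -0.054 with no composition factor. Esr1 lost its call without MERKO 1, MERKO 2, control 2 or control 3 (adjusted p 0.102, 0.0576, 0.109 and 0.0632 in edgeR), at -2.08 to -1.84. Without division by length, Hoxa held 33.6%, Hoxc 40.4%, group 9 22.3% and group 10 26.7% of the Hox level. At a limit of 1 count in every library, 29 Hox genes were detected. The cause of these shifts was not tested. Members under 20 counts in a library limit what depth can show.

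The groups share replicate numbers. Deviations of same-numbered libraries correlated at 0.448, 0.163 and 0.0612, and those of differently numbered libraries at -0.314 to 0.184. These values do not settle whether the numbers pair samples. No label says that they do, so the reported fit did not pair them. With the replicate block, 51 genes were called, among them Hoxd8 as the 1 Hox gene (log2 fold change -1.30, edgeR adjusted p 0.00295).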
